A study of Mus musculus with 9 samples.

Results

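Transcripts of 9 chemokine genes were examined in endothelium of the mouse heart: the ligands Cxcl12, Cxcl1, Cxcl9, Cxcl10, Cxcl16, Ccl2 and Cx3cl1, and the Cxcl12 receptors Cxcr4 and Ackr3. They were chosen by symbol from the deposited table, with earlier results of these data known. All 9 are present among 18094 listed genes, and all 9 were among the 15277 genes that passed the filter on low counts. The lowest count of any of them in any library was 24, for Cxcl10. The hypertensive inbred line is BPH/2J, and its normotensive partner is BPN/3J. The groups were BPN/3J at 22 weeks of age, BPH/2J at 4 weeks and BPH/2J at 22 weeks, each with 3 RNA sequencing libraries. Cells were freshly isolated from the heart with magnetic microbeads, and no treatment or allele beyond the line is given in the labels. Each blood pressure state is 1 inbred line, so pressure and genetic background cannot be told apart. No 4-week BPN/3J library was among the 9, so changes with age in BPH/2J cannot be told apart from changes shared by both lines. Nothing in the labels says that replicates are separate animals, so a p-value reflects only how far these libraries vary, and that variation may be technical.

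Chemokines are small secreted proteins that guide cells along gradients by activating G protein-coupled receptors. Cxcl12 is made in abundance by endothelial and stromal cells, signals through Cxcr4, and is taken up by Ackr3, an atypical receptor that recruits arrestin and removes the ligand from the extracellular space. Cxcl1, Ccl2, Cxcl9 and Cxcl10 are inflammatory ligands that draw neutrophils, monocytes and activated T cells, while Cxcl16 and Cx3cl1 are made as membrane-anchored proteins that can hold leukocytes on the vessel wall until they are shed by ADAM proteases.

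The inflammatory ligands are textbook targets of NF-kappaB and interferon signalling, so the 250 bases before the RefSeq start site were searched for 4 motifs on both strands with no mismatch. These were the kappaB consensus, the core of the interferon-stimulated response element (ISRE, GAAANNGAAA), the gamma-activated site (GAS, TTCNNNGAA) and the AP-1 site (TGANTCA). Promoters of 7 of the 9 genes were in the RefSeq table of build GRCm38.p6, and Cxcl16 and Ccl2 were not matched there. The reference is C57BL/6J sequence, and the BPH/2J and BPN/3J alleles were not read. The sequences of the 2 interferon-inducible ligands that moved differently, of the NF-kappaB-type ligand Cxcl1 and of the homeostatic ligand Cxcl12 are printed 5′ to 3′ on the gene's strand, and capitals mark matches to the kappaB consensus, the ISRE core or GAS.
Cxcl1, chr5:90890995-90891244, plus strand: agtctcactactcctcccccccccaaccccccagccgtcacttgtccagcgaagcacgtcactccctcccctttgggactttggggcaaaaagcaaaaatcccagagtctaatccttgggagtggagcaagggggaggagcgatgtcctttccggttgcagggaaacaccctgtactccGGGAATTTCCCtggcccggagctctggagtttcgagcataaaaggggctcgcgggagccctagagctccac
Cxcl10, chr5:92348890-92349139, minus strand: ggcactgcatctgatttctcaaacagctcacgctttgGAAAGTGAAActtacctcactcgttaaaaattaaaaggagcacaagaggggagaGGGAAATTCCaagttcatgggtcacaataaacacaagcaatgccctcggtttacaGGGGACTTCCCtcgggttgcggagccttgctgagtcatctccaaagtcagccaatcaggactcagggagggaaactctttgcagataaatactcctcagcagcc
Cxcl9, chr5:92328080-92328329, minus strand: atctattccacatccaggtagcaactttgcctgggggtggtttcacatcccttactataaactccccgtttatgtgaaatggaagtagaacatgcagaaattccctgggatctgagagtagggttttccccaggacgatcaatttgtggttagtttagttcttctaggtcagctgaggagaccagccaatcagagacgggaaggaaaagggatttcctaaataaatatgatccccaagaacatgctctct
Cxcl12, chr6:117168285-117168534, plus strand: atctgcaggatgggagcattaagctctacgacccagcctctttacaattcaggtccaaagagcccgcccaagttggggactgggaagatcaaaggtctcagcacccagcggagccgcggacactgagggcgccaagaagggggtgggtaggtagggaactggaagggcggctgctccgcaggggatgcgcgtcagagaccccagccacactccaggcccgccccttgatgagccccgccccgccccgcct

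Cxcl1 carried 2 overlapping kappaB matches, GGGAATTTCC at 71 to 62 bases and GGAATTTCCC at 70 to 61 bases before the start. In Cxcl10 there were 3 kappaB matches, of which those at 104 to 95 and 103 to 94 bases overlap and the other lies at 159 to 150 bases. Cxcl10 also held 1 ISRE core, GAAAGTGAAA, at 213 to 204 bases and 1 AP-1 match at 74 to 68 bases. The windows of Cxcl9, Cxcl12, Cxcr4, Ackr3 and Cx3cl1 held no match to any of the 4 motifs. Among 32851 mouse promoter windows of the same length, 7.25% held the kappaB consensus, 2.98% the ISRE core, 7.02% GAS and 6.75% the AP-1 site. A match describes letters in the reference and not occupancy, and a window without one says nothing about a factor.

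Libraries held 28806840 to 32913813 counts, and 17769 to 17852 genes had at least 1 count. Levels are given in CPM, the counts of a gene scaled to the total of its library. The floor, 3 counts, was 0.0911 to 0.104 CPM on the unscaled library totals and covers counting error only. All 8 endothelial markers were present in every library, with a summed level of 8859 to 9269 CPM in BPN/3J, 11185 to 11669 in 4-week BPH/2J and 11811 to 12014 in 22-week BPH/2J. Cdh5, the endothelial cadherin, was the most abundant of them. Markers of macrophages, lymphocytes, neutrophils, fibroblasts, pericytes and cardiomyocytes were also present in every library, and no listed marker was at 0. In such bulk samples, fewer cells of a type and less RNA per cell cannot be told apart.

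Per kilobase of the deposited gene length, Cxcl12 was the most abundant of the 53 chemokine and receptor genes listed, at 278 CPM per kilobase averaged over the 9 libraries. Cxcr4 was next at 75.4, followed by Ackr3 at 69.0, and Cxcl1 followed at 46.5 CPM per kilobase. The order below Cxcl12 differed between groups. In BPN/3J it was Ackr3 at 99.1, Cxcl1 at 60.7 and Cxcr4 at 46.3, whereas in 22-week BPH/2J it was Cxcr4 at 101, Ackr3 at 61.5 and Cxcl1 at 33.05. In 4-week BPH/2J Cxcr4 stood at 79.2, with Ackr3 at 46.2 ± 5.05 and Cxcl1 at 45.7 ± 4.15 within each other's spread. Cxcl16 ranked 6 at 16.3, Ccl2 ranked 9 at 10.7 and Cx3cl1 ranked 11 at 8.98. The interferon-inducible ligands were lower, with Cxcl9 at rank 17 and 5.02 CPM per kilobase and Cxcl10 at rank 25 and 1.46. Between them stood other family genes such as the platelet chemokine Pf4 at rank 5 and the neutrophil attractant Cxcl2 at rank 7.

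**Figure D1:**
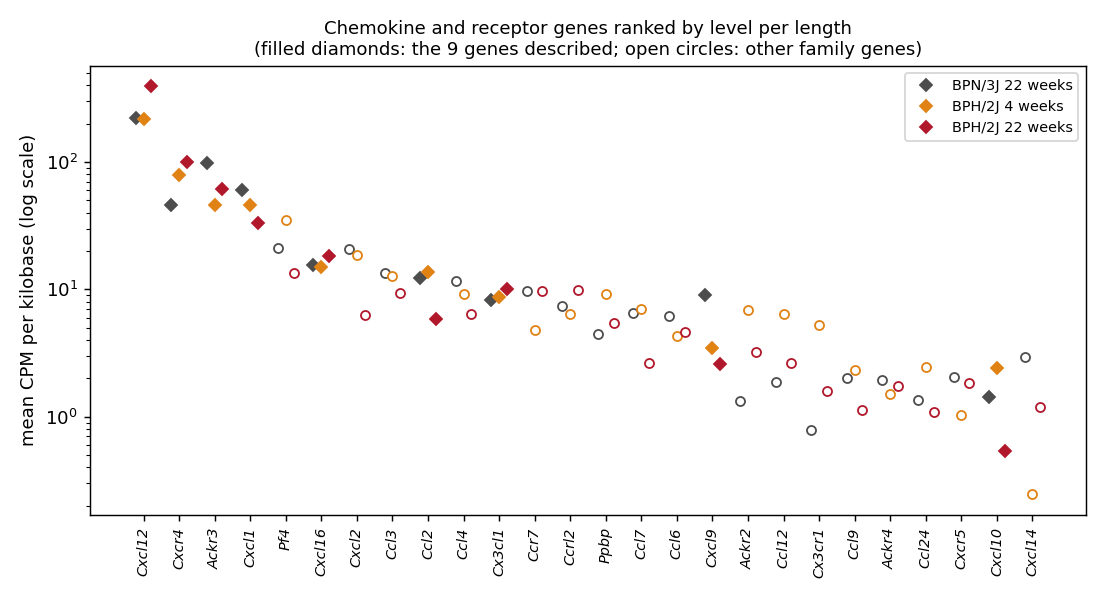
Mean CPM per kilobase of gene length on a log axis for the 26 most abundant chemokine and receptor genes, in order of their level over all libraries, with 1 symbol per group of 3 libraries. Filled diamonds mark the 9 genes described, with Cxcl12, Cxcr4, Ackr3 and Cxcl1 at the first 4 ranks.

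Between the lines at 22 weeks, all 9 genes differed, 4 higher and 5 lower in BPH/2J, at an adjusted p under 0.05 in the quasi-likelihood test of edgeR fitted on all genes. The background was high, since 38.0% of the 15277 genes tested passed in this comparison, 19.8% as higher and 18.2% as lower. Library values did not overlap between the groups for any of the 9, against 55.7% of all genes tested. Since the 9 were chosen with earlier results of these data known, their share beside all genes is not a test of the set. The 4 genes that were higher in BPH/2J were Cxcl12, its receptor Cxcr4 and the membrane-anchored ligands Cxcl16 and Cx3cl1. The 5 that were lower were Ackr3 and the inflammatory ligands Cxcl1, Cxcl9, Cxcl10 and Ccl2. The median log2 difference of the 9, which were split in direction, was -0.69, the value of Ackr3, against 0.02 over all genes tested.

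Within BPH/2J, 6 of the 9 differed between 22 and 4 weeks, against 41.0% of all genes tested (19.9% higher and 21.1% lower). Cxcl12, Ackr3 and Cxcl16 were higher at 22 weeks, and Cxcl1, Cxcl10 and Ccl2 were lower. Values did not overlap between ages for 7 of the 9, against 51.2% of all genes. The median log2 difference of the 9, again split in direction, was 0.22, the value of the uncalled Cx3cl1, against 0.01 over all genes tested. Both comparisons use the 22-week BPH/2J libraries, so agreement between them is not independent. The remaining pair of groups, 4-week BPH/2J and 22-week BPN/3J, differs in line and age together, which cannot be told apart, and there 4 of the 9 differed, 1 higher and 3 lower, against 53.1% of all genes (27.8% higher and 25.3% lower).

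**Figure D2:**
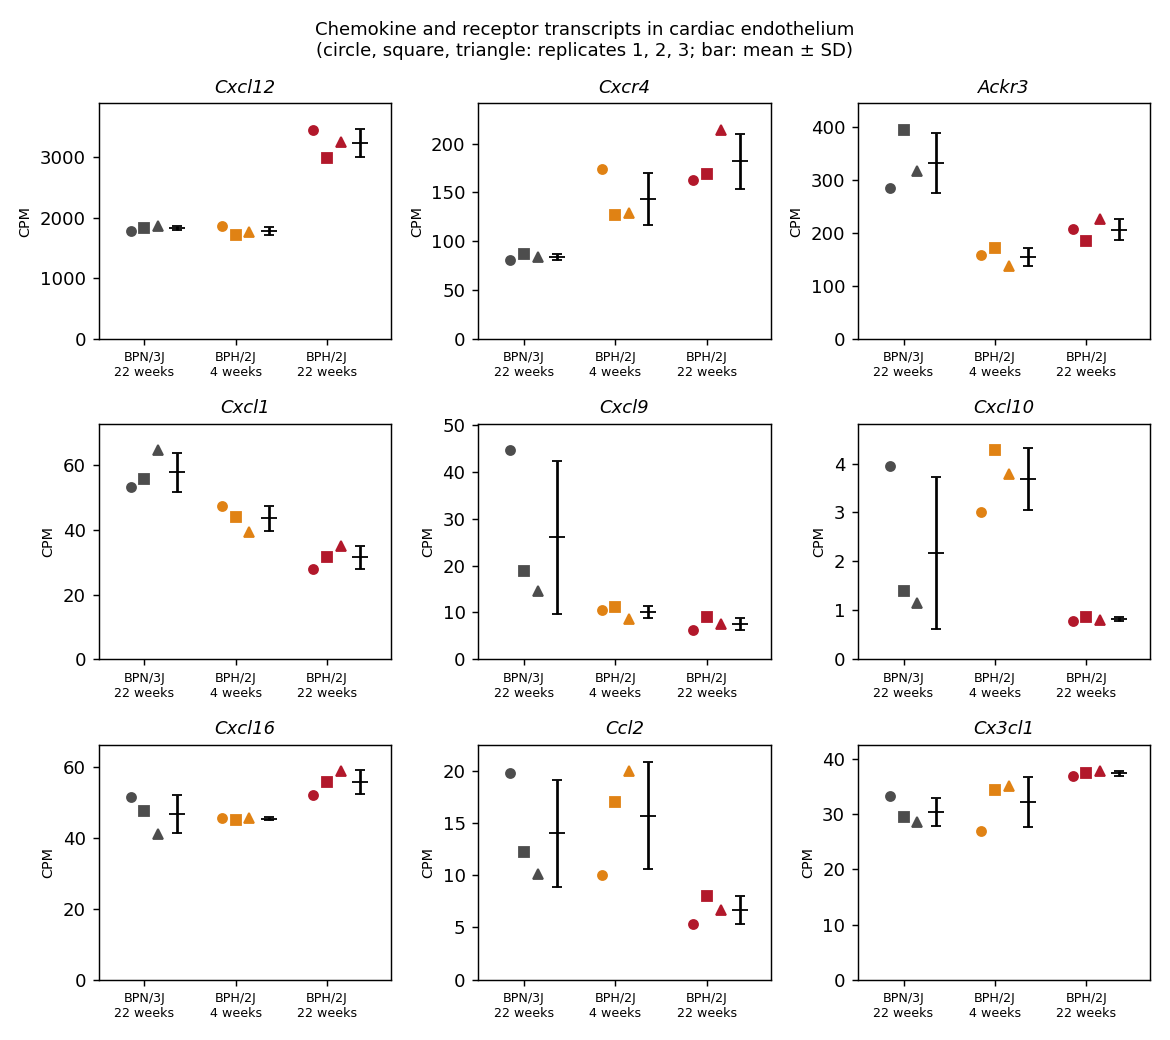
CPM of the 9 genes in each library on axes that start at 0, by line and age, with circle, square and triangle for replicates 1, 2 and 3 and a bar for the mean ± SD of 3 libraries. Cxcl12 in 22-week BPH/2J, at 2991 to 3453 CPM, lies clear of both other groups, and Ackr3 in BPN/3J, at 284 to 395 CPM, lies above all BPH/2J libraries.

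Cxcl12, the ligand that retains Cxcr4-bearing cells in tissue, stood at 1782, 1834 and 1854 CPM in BPN/3J replicates 1, 2 and 3, at 1855, 1711 and 1767 in 4-week BPH/2J and at 3453, 2991 and 3243 in 22-week BPH/2J. The 22-week BPH/2J libraries were all high, while the other 2 groups overlapped. Its means were 1823 ± 37.2, 1778 ± 72.6 and 3229 ± 231 CPM (SD, n = 3, as for all means given with SD). The 22-week BPH/2J level was 1.77-fold that of BPN/3J, a log2 difference of 0.82 ± 0.08 (SE, edgeR adjusted p = 3.66e-05). Against 4-week BPH/2J it was 1.82-fold higher, at 0.86 ± 0.08 (edgeR adjusted p = 3.56e-05). Between 4-week BPH/2J and BPN/3J the log2 difference was -0.04, with a 95% interval from -0.22 to 0.14 (edgeR adjusted p = 0.731). Among these 3 groups, Cxcl12 thus stood apart only in the 22-week BPH/2J libraries. The other 2 groups differ in line and age together, so the interval bounds only the net of both.

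Cxcr4, the signalling receptor, was at 80.3, 86.9 and 83.8 CPM in BPN/3J, at 174, 127 and 128 in 4-week BPH/2J and at 162, 169 and 214 in 22-week BPH/2J. Every BPH/2J library lay above every BPN/3J library, whatever its age, and the ages overlapped. At 22 weeks Cxcr4 was 2.17-fold higher in BPH/2J, with a log2 difference of 1.12 ± 0.13 (edgeR adjusted p = 0.000133). Four-week BPH/2J also exceeded BPN/3J, by 0.78 ± 0.13 (edgeR adjusted p = 0.000652). The difference between the ages, 0.35 with a 95% interval from 0.05 to 0.64, missed the threshold (edgeR adjusted p = 0.0576). It passed without 4-week replicate 1, the highest of its group, at 0.51 (edgeR adjusted p = 0.00229), and without 22-week BPH/2J replicate 1, at 0.43 (edgeR adjusted p = 0.0461). It also passed with upper-quartile scaling (0.37, edgeR adjusted p = 0.0475) and with DESeq2 (0.34, adjusted p = 0.039), and it was 0.22 without 22-week BPH/2J replicate 3 (edgeR adjusted p = 0.211). The order of the groups was thus BPN/3J below both ages of BPH/2J, and whether the ages passed the threshold depended on the libraries and the method used.

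Ackr3, the receptor that scavenges Cxcl12, showed the opposite order between lines. It was at 284, 395 and 317 CPM in BPN/3J, at 157, 170 and 137 in 4-week BPH/2J and at 207, 185 and 226 in 22-week BPH/2J, and no groups overlapped. At 22 weeks it was 1.61-fold lower in BPH/2J, with a log2 difference of -0.69 ± 0.13 (edgeR adjusted p = 0.00187). Four-week BPH/2J was lower still, at -1.10 ± 0.13 against BPN/3J (edgeR adjusted p = 4.45e-05). Within BPH/2J, Ackr3 was higher at 22 than at 4 weeks by 0.41 ± 0.13 (edgeR adjusted p = 0.0237). That last call was lost without 4-week replicate 3 (0.34, edgeR adjusted p = 0.0904), without 22-week BPH/2J replicate 1 (0.41, edgeR adjusted p = 0.0606) and without 22-week BPH/2J replicate 3 (0.35, edgeR adjusted p = 0.0856).

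The balance of the receptors was read as a ratio within each library, which needs no scaling between libraries. Per kilobase, the Ackr3 to Cxcr4 ratio was 1.91, 2.45 and 2.04 in BPN/3J, 0.488, 0.723 and 0.575 in 4-week BPH/2J and 0.691, 0.590 and 0.568 in 22-week BPH/2J. The scavenging receptor thus had the higher transcript level per length in all 3 BPN/3J libraries and the lower one in all 6 BPH/2J libraries. The mean log2 ratio at 22 weeks differed by -1.79 between BPH/2J and BPN/3J (two-sided exact permutation test, p = 0.1, the smallest value that 3 against 3 can give). Between the ages of BPH/2J it differed by 0.06 (exact permutation p = 0.9), and the sign turned without 4-week replicate 1 (-0.071) or 22-week replicate 1 (-0.022). A raised or lowered transcript ratio is not a measure of receptor protein on the cell surface.

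The ratio of ligand to signalling receptor differed less between the lines and more between the ages. Cxcl12 to Cxcr4 per kilobase was 4.91, 4.67 and 4.89 in BPN/3J, 2.36, 2.98 and 3.04 in 4-week BPH/2J and 4.71, 3.91 and 3.35 in 22-week BPH/2J. The lowest ratios were those of the 4-week libraries, where Cxcr4 was already high and Cxcl12 was not. The log2 ratio differed by -0.29 between the lines at 22 weeks (exact permutation p = 0.2) and by 0.51 between the ages (exact permutation p = 0.1). Neither p can fall below 0.1 with 3 libraries a group.

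**Figure D3:**
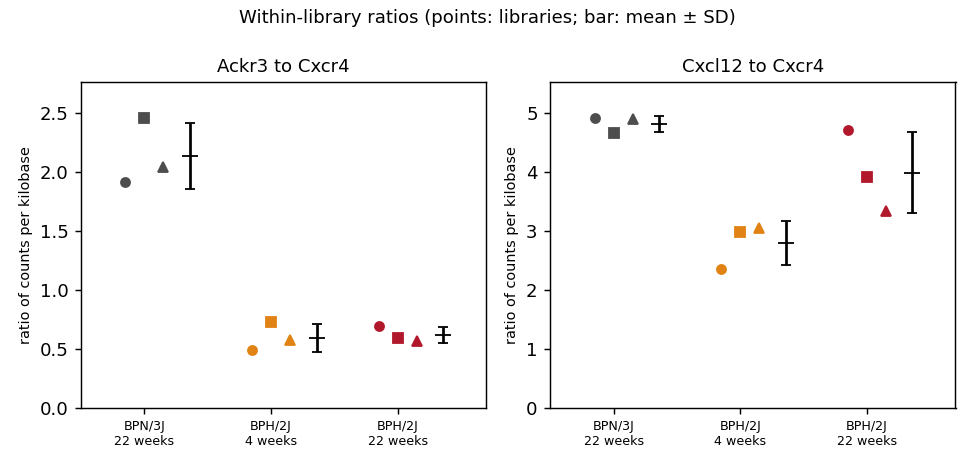
Ratio of Ackr3 to Cxcr4 and of Cxcl12 to Cxcr4 within each library, in counts per kilobase on axes that start at 0, with the mean ± SD of 3 libraries per group. Ackr3 to Cxcr4 lies between 1.91 and 2.45 in BPN/3J and between 0.488 and 0.723 in all BPH/2J libraries.

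Genes that take part in Cxcl12 binding, cleavage and receptor signalling were measured for all 16 members listed. Beside them, 19.8% of all genes tested were higher and 18.2% lower between the lines, and 19.9% and 21.1% between the ages. At 22 weeks 5 were higher and 5 lower in BPH/2J, with a median log2 difference of 0.08, and between the ages 1 was higher and 7 lower at 22 weeks, with a median of -0.23. Arrb1, which encodes the arrestin that binds activated receptors, was at 65.4 ± 5.08 CPM in BPN/3J and 101 ± 4.95 in 22-week BPH/2J (log2 difference 0.63 ± 0.09, edgeR adjusted p = 0.000326). Gnai2, the inhibitory G protein subunit through which Cxcr4 signals, was higher by 0.31 ± 0.07 (edgeR adjusted p = 0.00494). Adrbk2, a kinase that phosphorylates activated receptors, was lower at -0.97 ± 0.15 (edgeR adjusted p = 0.000658). Rgs1, which shortens G protein signalling, was lower at -1.83 ± 0.30 (edgeR adjusted p = 0.000973), whereas Rgs16, of the same family, was higher at 0.57 ± 0.18 (edgeR adjusted p = 0.0271). Between the ages Rgs16 was lower at 22 weeks, at -1.18 ± 0.18 (edgeR adjusted p = 0.000493), as was the G protein subunit gene Gnai3, at -0.37 ± 0.05 (edgeR adjusted p = 0.000356). Cd74, a receptor for the Cxcr4 ligand Mif, was the gene higher at 22 than at 4 weeks, at 0.77 ± 0.27 (edgeR adjusted p = 0.0419). Between the lines at 22 weeks Cd74 was lower in BPH/2J, at -1.41 ± 0.27 (edgeR adjusted p = 0.00252). The counts between the lines fell to 2 or 3 higher when any 1 BPN/3J library or 22-week BPH/2J replicate 1 or 3 was left out, and to 3 lower without BPN/3J replicate 1 or 2 or 22-week BPH/2J replicate 2 or 3. Between the ages the lower genes were 4 without 4-week replicate 3, and the gene that was higher was lost without 4-week replicate 1 or 3, BPN/3J replicate 2, or 22-week replicate 1 or 3.

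By a fixed measure of likeness, the genes whose pattern over the 9 libraries came nearest to each of the 3 axis genes were found among 10654 genes that averaged 5 CPM or more. The measure was the root mean square difference of log2 CPM, each gene centred on its own mean. Nearest to Cxcl12 were Them6 at 0.12, Stmn2 at 0.12 and Ltbp1 at 0.12, against a median of 0.45 over all genes compared. Nearest to Cxcr4 were Galk1 at 0.12, Chek2 at 0.12 and Tab1 at 0.12, against a median of 0.51. Nearest to Ackr3 were Ptgs1 at 0.13, Tmcc3 at 0.13 and Lrrc2 at 0.14, against a median of 0.52. Stmn2 is also on the list of arterial markers, of which 8 of 13 were higher and 3 lower in BPH/2J at 22 weeks. At 22 than at 4 weeks 7 were higher and none lower (4 higher without 4-week replicate 2 or 22-week BPH/2J replicate 3). Of all genes tested, 19.8% were higher and 18.2% lower between the lines, and 19.9% and 21.1% between the ages. The summed level of the arterial markers was 2136 to 2336 CPM in BPN/3J, 2115 to 2245 in 4-week BPH/2J and 2462 to 2615 in 22-week BPH/2J. Like Cxcl12, the sum was highest in 22-week BPH/2J, while the other groups overlapped. It includes Stmn2, already named for its likeness to Cxcl12, and the part of arterial cells in the Cxcl12 result was not tested. Within that list Gja4, a gap junction gene of arteries, was at 27.3 ± 3.61, 59.2 ± 10.9 and 75.4 ± 7.005 CPM, while Sox17, a transcription factor of arterial fate, was at 238 ± 3.23, 114 ± 9.42 and 147 ± 5.30, so its members did not share a single order.

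**Figure D4:**
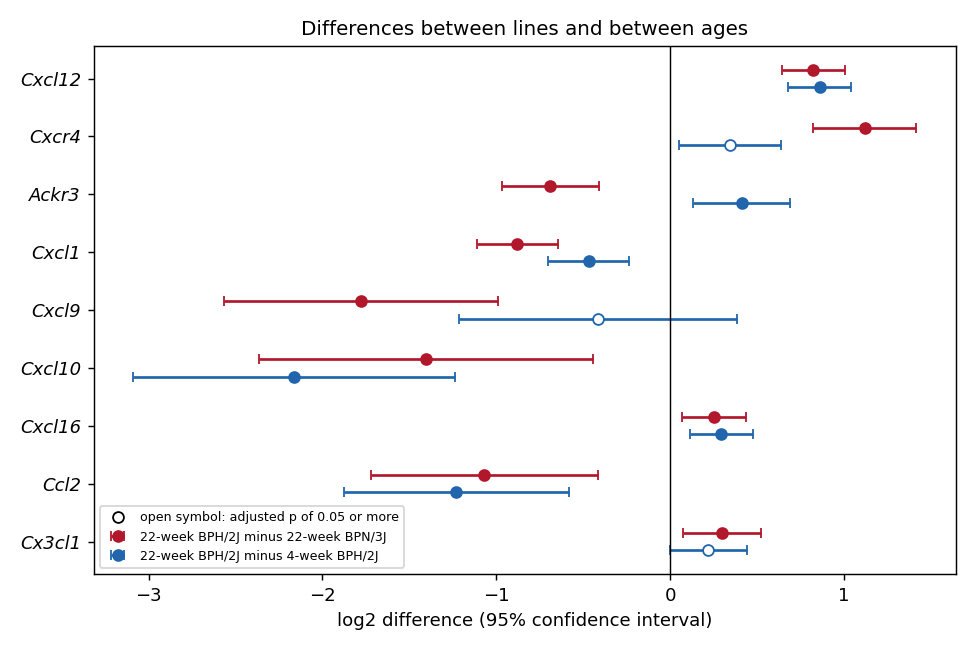
Log2 difference with its 95% confidence interval for each of the 9 genes, 22-week BPH/2J minus 22-week BPN/3J in red and 22-week minus 4-week BPH/2J in blue, with open symbols where the adjusted p is 0.05 or more. Cxcl12 sits at 0.82 and 0.86 in the 2 comparisons, while Ackr3 lies on opposite sides of 0, at -0.69 and 0.41.

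Cxcl1, a ligand of the neutrophil receptor Cxcr2, differed between all 3 groups. It was at 53.3, 55.7 and 64.7 CPM in BPN/3J, at 47.3, 43.9 and 39.4 in 4-week BPH/2J and at 27.8, 31.6 and 35.1 in 22-week BPH/2J, with no overlap between any groups. At 22 weeks it was 1.84-fold lower in BPH/2J, with a log2 difference of -0.88 ± 0.11 (edgeR adjusted p = 0.000137). Within BPH/2J it was 1.38-fold lower at 22 weeks, at -0.47 ± 0.11 (edgeR adjusted p = 0.00539). Four-week BPH/2J was below BPN/3J by -0.41 ± 0.10 (edgeR adjusted p = 0.00695). All 3 differences of Cxcl1 passed, which among the 9 genes was shared only by Ackr3.

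Cxcl9, an interferon-gamma-inducible ligand of the T cell receptor Cxcr3, rested in part on 1 library. Its values were 44.7, 18.9 and 14.6 CPM in BPN/3J, 10.5, 11.2 and 8.66 in 4-week BPH/2J and 6.32, 8.95 and 7.51 in 22-week BPH/2J. BPN/3J replicate 1 stood far above replicates 2 and 3, and even these lay above every BPH/2J library. At 22 weeks Cxcl9 was 3.43-fold lower in BPH/2J, with a log2 difference of -1.78 ± 0.36 (edgeR adjusted p = 0.00311). Without BPN/3J replicate 1 the log2 difference was -1.14 and still passed (edgeR adjusted p = 0.00138). Four-week BPH/2J was also lower than BPN/3J, by -1.36 ± 0.35 (edgeR adjusted p = 0.00719), or by -0.72 without that library (edgeR adjusted p = 0.0076). Between the ages of BPH/2J the libraries overlapped, at -0.41 with a 95% interval from -1.21 to 0.39 (edgeR adjusted p = 0.388).

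Cxcl10, a further Cxcr3 ligand and the least abundant of the 9, followed another order. It was at 3.95, 1.39 and 1.16 CPM in BPN/3J, at 3.00, 4.27 and 3.78 in 4-week BPH/2J and at 0.778, 0.869 and 0.805 in 22-week BPH/2J, from 24 to 124 counts per library. The 22-week BPH/2J libraries were the lowest, and BPN/3J replicate 1 lay among the 4-week libraries. Within BPH/2J Cxcl10 was 4.49-fold lower at 22 than at 4 weeks, with a log2 difference of -2.17 ± 0.42 (edgeR adjusted p = 0.00234). At 22 weeks it was 2.65-fold lower in BPH/2J than in BPN/3J, at -1.41 ± 0.43 (edgeR adjusted p = 0.0268). This call between lines was lost without BPN/3J replicate 1 (-0.64, edgeR adjusted p = 0.077). It was also lost without 22-week BPH/2J replicate 1 (-1.37, edgeR adjusted p = 0.0736), replicate 2 (-1.45, edgeR adjusted p = 0.0604) or replicate 3 (-1.39, edgeR adjusted p = 0.0738). Between 4-week BPH/2J and BPN/3J the difference of 0.76 missed the threshold (95% interval from -0.07 to 1.59, edgeR adjusted p = 0.113), and it passed without BPN/3J replicate 1 (1.53, edgeR adjusted p = 0.00049). Exons of Cxcl10 overlap those of the antisense gene Art3, which had 769 to 1866 counts per library. Neither labels nor headers state the strandedness of the counting, so reads in the stretch shared by the pair cannot be told apart.

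Ccl2, which recruits monocytes through Ccr2, was lowest in 22-week BPH/2J. It was at 19.8, 12.2 and 10.07 CPM in BPN/3J, at 10.05, 17.0 and 20.0 in 4-week BPH/2J and at 5.35, 8.01 and 6.70 in 22-week BPH/2J. All 3 libraries of that group lay below the others, which overlapped with each other. Within BPH/2J Ccl2 was 2.34-fold lower at 22 weeks, at -1.23 ± 0.29 (edgeR adjusted p = 0.00734). Between the lines at 22 weeks it was 2.10-fold lower in BPH/2J, at -1.07 ± 0.29 (edgeR adjusted p = 0.0163), a call that was lost without BPN/3J replicate 1 (-0.73, edgeR adjusted p = 0.0651) or 22-week BPH/2J replicate 1 (-0.92, edgeR adjusted p = 0.0631). Between 4-week BPH/2J and BPN/3J the log2 difference was 0.16, with a 95% interval from -0.46 to 0.78 (edgeR adjusted p = 0.656).

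The summed macrophage and monocyte markers, like Ccl2, were lowest in 22-week BPH/2J. The 12 macrophage and monocyte markers summed to 720, 435 and 487 CPM in BPN/3J, 480, 666 and 881 in 4-week BPH/2J, and 280, 306 and 332 in 22-week BPH/2J. Replicate 1 of BPN/3J and replicate 3 of 4-week BPH/2J were the highest of their groups, as they were for Ccl2. In 22-week BPH/2J, replicate 3 had the highest sum and replicate 2 the highest Ccl2. Cxcl1 and Cxcl9 were highest in BPN/3J, where the marker sums overlapped those of 4-week BPH/2J. Between the lines 9 of the 12 markers were lower and none higher in BPH/2J, beside 18.2% and 19.8% of all genes tested. Between the ages 10 were lower and 1 higher at 22 weeks, beside 21.1% and 19.9% of all genes. Among the markers Cd68 was at 23.2 ± 1.85, 26.9 ± 2.33 and 13.5 ± 1.89 CPM in BPN/3J, 4-week and 22-week BPH/2J, and Lyz2, the most abundant, was at 146 ± 38.5, 202 ± 69.5 and 92.2 ± 14.0. No macrophage marker was at 0 in any library. The part of macrophage RNA in the results for Ccl2, Cxcl1, Cxcl9 and Cxcl10 was not tested.

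The 19 measured interferon-gamma-inducible genes summed to 4008, 2115 and 2029 CPM in BPN/3J, 1398, 1632 and 1450 in 4-week BPH/2J, and 1635, 1648 and 1522 in 22-week BPH/2J. BPN/3J replicate 1 was again the highest, as it was for Cxcl9. Between the lines at 22 weeks 12 of the 19 were lower in BPH/2J and none higher, beside 18.2% and 19.8% of all genes tested. The median log2 difference of the 19 was -0.61, and without BPN/3J replicate 1, 8 were lower and 1 higher. Between the ages 5 were higher and 2 lower at 22 weeks, beside 19.9% and 21.1% of all genes tested. The median of the 19 was 0.05, while Cxcl10 was lower at 22 weeks. Without 4-week replicate 3 the number higher was 3, and the number lower ran from 1 (without 4-week replicate 2 or 3, or 22-week replicate 1 or 3) to 4 (without BPN/3J replicate 1). Irf8, a transcription factor of interferon responses and of myeloid cells, was at 54.5 ± 7.42, 22.1 ± 3.39 and 13.1 ± 1.68 CPM in BPN/3J, 4-week and 22-week BPH/2J. Gbp6, an interferon-inducible GTPase, was at 33.4 ± 20.9, 10.7 ± 1.70 and 6.11 ± 0.142 CPM, a spread within BPN/3J like that of Cxcl9. In BPH/2J the means of Irf8 and Gbp6 were lower at 22 than at 4 weeks, unlike the 5 genes of the list that were higher.

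NF-kappaB feedback and target genes were called about as often as all genes between the lines. Of the 18 measured, 3 were higher and 4 lower in BPH/2J at 22 weeks, beside 19.8% and 18.2% of all genes tested, and 3 were higher and 3 lower at 22 than at 4 weeks, with medians of 0.08 and -0.02. The number higher was 5 between the lines without BPN/3J replicate 3, and 1 between the ages without 4-week replicate 3. Nfkbia, the inhibitor that NF-kappaB itself induces, was at 455 ± 15.4 CPM in BPN/3J, 164 ± 10.8 in 4-week and 202 ± 16.9 in 22-week BPH/2J, a log2 difference of -1.17 ± 0.08 between the lines at 22 weeks (edgeR adjusted p = 2.28e-06). Tnip1, an adaptor that restrains the same pathway, was higher in BPH/2J by 0.68 ± 0.09 (edgeR adjusted p = 0.000321). Cxcl1 and Cxcl10, whose promoter windows carry kappaB matches, were lower in both comparisons, and Cxcl9, whose window carries none, was lower between the lines. A link between motif and direction was not tested.

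Immediate early genes, which respond to tissue dissociation among other stimuli, were lower in BPH/2J for 11 of 12 members at 22 weeks, beside 18.2% of all genes tested. Beside 21.1% of all genes between the ages, 1 of 12 was lower at 22 than at 4 weeks. That gene, Dusp1, was called neither without 4-week replicate 2 or 3 nor without 22-week replicate 1 or 2, and without 4-week replicate 1, 4 of the 12 were higher at 22 weeks. Their summed level was 9084 to 11925 CPM in BPN/3J, 5488 to 7960 in 4-week BPH/2J and 6013 to 6813 in 22-week BPH/2J, and Egr1 was the most abundant. Nfkbia, Cxcl1 and Cxcl2 can also respond quickly to dissociation, and the part of the isolation procedure in the results for Cxcl1 and Ccl2 was not tested.

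**Figure D5:**
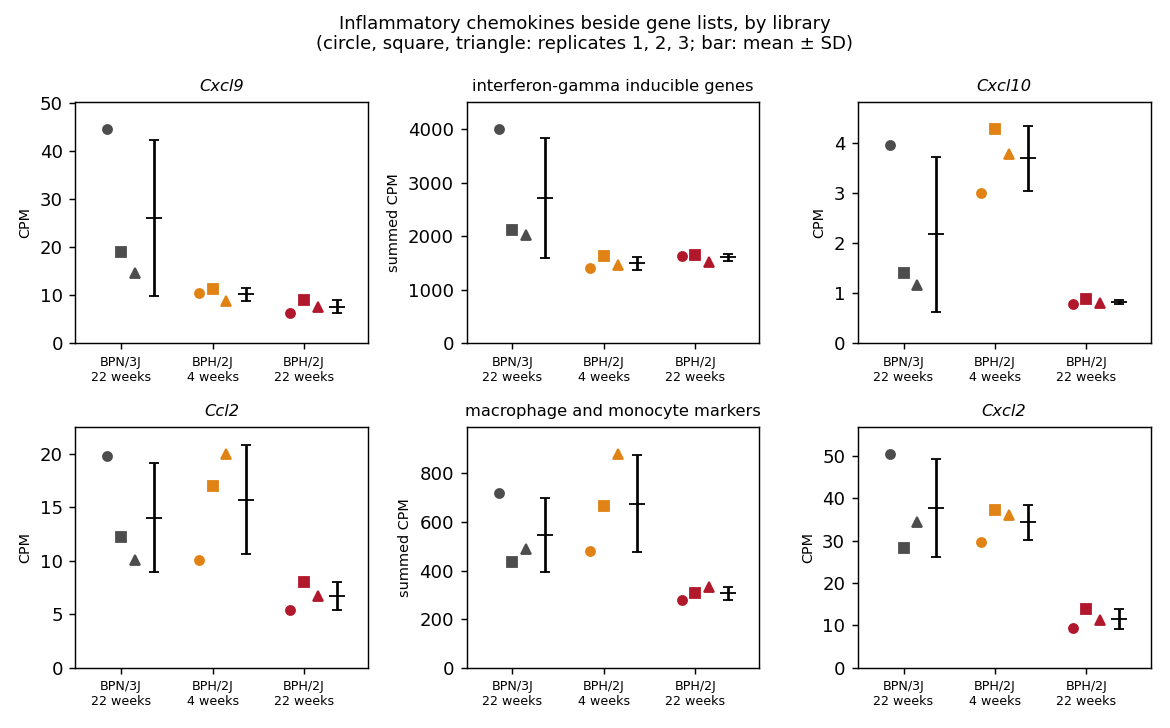
Per-library CPM of Cxcl9, Cxcl10, Ccl2 and Cxcl2 beside the summed CPM of the interferon-gamma-inducible genes and of the macrophage and monocyte markers, on axes that start at 0, with circle, square and triangle for replicates 1, 2 and 3 and a bar for the mean ± SD. BPN/3J replicate 1 is the highest of its group in all 6 panels, and 22-week BPH/2J has the lowest macrophage sums, at 280 to 332 CPM.

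Cxcl16, a membrane-anchored ligand and scavenger receptor, had, with Cx3cl1, the smallest differences between the lines. It was at 51.4, 47.6 and 40.9 CPM in BPN/3J, at 45.6, 44.9 and 45.5 in 4-week BPH/2J and at 52.1, 55.7 and 58.9 in 22-week BPH/2J. The lowest 22-week BPH/2J library lay just above the highest BPN/3J library. At 22 weeks it was 1.19-fold higher in BPH/2J, at 0.25 ± 0.08 (edgeR adjusted p = 0.0337), and within BPH/2J it was 1.23-fold higher at 22 weeks, at 0.29 ± 0.08 (edgeR adjusted p = 0.0158). The call between lines was lost without BPN/3J replicate 2 (0.27, edgeR adjusted p = 0.0662) or replicate 3 (0.17, edgeR adjusted p = 0.101) and without 22-week BPH/2J replicate 2 (0.25, edgeR adjusted p = 0.0718) or replicate 3 (0.21, edgeR adjusted p = 0.11). The call between ages was lost without 22-week BPH/2J replicate 3 (0.26, edgeR adjusted p = 0.0579). The 8 endothelial markers had a median log2 difference of 0.29 between the lines and 0.16 between the ages. Whether Cxcl16 and Cx3cl1 moved with endothelial RNA as a whole was not tested. Exons of Cxcl16 overlap those of the antisense gene Zmynd15, which had 587 to 810 counts per library. Reads in the stretch that this pair shares cannot be told apart either.

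Cx3cl1, or fractalkine, tethers monocytes that carry Cx3cr1. It was at 33.3, 29.4 and 28.5 CPM in BPN/3J, at 26.9, 34.3 and 35.1 in 4-week BPH/2J and at 36.9, 37.4 and 37.8 in 22-week BPH/2J. The 22-week BPH/2J libraries were the highest and lay close together, and the other groups overlapped. Between the lines at 22 weeks it was 1.23-fold higher in BPH/2J, at 0.30 ± 0.10 (edgeR adjusted p = 0.0387), and between the ages the difference of 0.22 missed the threshold (95% interval from -0.00191 to 0.44, edgeR adjusted p = 0.104), and it was 0.11 without 4-week replicate 1, the lowest of its group. The call between lines was lost without BPN/3J replicate 2 (0.27, edgeR adjusted p = 0.109) or replicate 3 (0.25, edgeR adjusted p = 0.126) and when any 1 of the 22-week BPH/2J libraries was left out (0.29 to 0.31, edgeR adjusted p = 0.0755 to 0.0924). Its receptor gene Cx3cr1 was at 2.91 ± 1.90, 19.5 ± 3.11 and 5.93 ± 0.125 CPM in BPN/3J, 4-week and 22-week BPH/2J.

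Both membrane-anchored ligands are cut from the surface by the proteases Adam10 and Adam17, the latter with the help of the iRhom proteins encoded by Rhbdf1 and Rhbdf2. Adam10 was at 251 ± 3.66, 450 ± 17.0 and 380 ± 26.2 CPM in BPN/3J, 4-week and 22-week BPH/2J, and Adam17 was at 139 ± 1.06, 213 ± 34.2 and 173 ± 3.08. Both were higher in BPH/2J at 22 weeks, by 0.60 ± 0.07 (edgeR adjusted p = 7.75e-05) and 0.32 ± 0.10 (edgeR adjusted p = 0.0259), while Rhbdf2 was lower by -0.46 ± 0.08 (edgeR adjusted p = 0.00162). With any 1 library of these 2 groups left out, 1 of the 4 genes was higher. In the main fit, 19.8% of all genes tested were higher between the lines. All 4 sheddase and iRhom genes were lower at 22 than at 4 weeks, against 21.1% of all genes tested. Without 22-week BPH/2J replicate 1 or 3, 2 of the 4 were lower. Transcript counts do not show how much ligand was shed.

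The remaining family members were read from the same fit. Of 31 other ligands listed, 24 were in the table and 17 were tested. At 22 weeks 7 of the 17 were lower in BPH/2J and none higher, beside 18.2% and 19.8% of all genes tested. The median log2 difference of the 17 was -0.66. Without BPN/3J replicate 1, 4 were lower and 2 higher, and without 22-week BPH/2J replicate 2 or 3, 4 were lower. Between the ages 6 were lower and 1 higher at 22 weeks, beside 21.1% and 19.9% of all genes tested. Without 4-week replicate 3, 3 ligands were lower. When any 1 BPN/3J library, 4-week replicate 1 or 22-week replicate 3 was left out, 2 were higher. Cxcl2, the near neighbour of Cxcl1 in the genome and in function, was at 50.5, 28.1 and 34.5 CPM in BPN/3J, at 29.6, 37.3 and 36.1 in 4-week BPH/2J and at 9.40, 14.0 and 11.2 in 22-week BPH/2J. It was lower in 22-week BPH/2J than in either other group, at -1.71 ± 0.21 against BPN/3J (edgeR adjusted p = 0.000166) and -1.57 ± 0.21 against 4-week BPH/2J (edgeR adjusted p = 0.000263). Cxcl1 thus differed between 4-week BPH/2J and BPN/3J, and for Cxcl2 that difference was -0.14 and missed the threshold (edgeR adjusted p = 0.589). The contrast between the 2 genes was not itself tested.

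Of 21 other receptor genes listed, 20 were present and 15 were tested. At 22 weeks 3 were higher and 1 lower in BPH/2J, beside 19.8% and 18.2% of all genes tested. Between the ages 3 were higher and 2 lower at 22 weeks, beside 19.9% and 21.1% of all genes. The last number higher was 1 without 4-week replicate 2 or 3 or 22-week replicate 3, and 2 were lower between the lines without 4-week replicate 1. Ackr2, which scavenges inflammatory CC chemokines such as Ccl2, was at 4.02 ± 0.613, 20.6 ± 1.48 and 9.60 ± 2.95 CPM in BPN/3J, 4-week and 22-week BPH/2J, the reverse of the order of Ackr3. Its log2 difference was 1.26 ± 0.20 between the lines at 22 weeks (edgeR adjusted p = 0.000921) and -1.10 ± 0.19 between the ages (edgeR adjusted p = 0.00105). Ccrl2, a chemerin-binding relative, was higher in 22-week BPH/2J than in both other groups, at 0.44 ± 0.10 (edgeR adjusted p = 0.00567) and 0.65 ± 0.10 (edgeR adjusted p = 0.000585).

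The authors' deposited table gave its own comparisons for the same libraries. For the 9 genes and 3 pairs of groups, 26 of 27 values in the authors' deposited table fell on the same side of 0.05 as the fit used here, and none had the opposite direction. The exception was Cxcr4 between the ages, which the authors' deposited table lists at a log2 difference of 0.353 with a false discovery rate of 0.0202. In a further contrast of 22-week BPH/2J against both other groups, the authors' deposited table lists Cxcl12 at 0.854 (false discovery rate 1.11e-16), Cxcr4 at 0.744 (2.67e-10) and Ackr3 at -0.127 (0.414). In Ackr3, the 22-week BPH/2J level lay between those of the other 2 groups.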

How the data were processed

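Whole-transcriptome RNA sequencing (polyA-selected, 100-cycle single reads) covered 9 libraries of cardiac endothelium in 3 groups of 3, assigned by the strain and age in the labels. The authors deposited 1 table of raw read counts for 18094 genes, with CPM values, log2 fold changes, p-values and gene lengths beside them, per the file headers. Per the submitters' processing notes, the tools were TopHat2 2.0.13, Bowtie2, featureCounts (Subread), FastQC, CASAVA 1.8.2 and edgeR with build mm9, in roles not stated there. Annotation release and strandedness are not given in the sources.

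Counts were refitted in edgeR 4.0.16 (R 4.3.3) with filterByExpr (minimum count 10, minimum total 15), which left 15277 genes, TMM scaling and 1 quasi-likelihood fit of all 9 libraries. Two-sided F tests were adjusted by Benjamini-Hochberg over all genes tested at 0.05. Standard errors are the absolute log2 difference divided by the root of F. TMM factors enter every CPM printed here except the floor, so the deposited CPM values differ by those factors. Ratios within libraries were compared by a two-sided exact permutation test. The fit was checked on simulated data.

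The 9 genes, the 15 gene lists and the motifs were chosen with earlier results of these data known. The lists are the other ligands and receptors, Cxcl12 partners, sheddases, NF-kappaB, interferon-gamma-inducible and immediate early genes, and markers of endothelium, arterial endothelium, macrophages, lymphocytes, neutrophils, fibroblasts, pericytes and cardiomyocytes. From each list and each of the comparisons between lines and between ages, the rule for naming took the 2 most significant called genes per direction, and it added the most abundant marker, the 3 genes most like each axis gene and all 9 genes. Not every gene that the rule took from the lists is printed. Alternatives were scaling by median of ratios or upper quartile, keeping all genes, requiring 1 CPM in 3 libraries, DESeq2 1.42.0, fits of only the groups compared, the newer fit of edgeR, the replicate number as a block, and each library left out. Overlapping exons were taken from GENCODE M21 and promoters from RefSeq (GRCm38.p6), and no coordinates were converted between builds. Figures were drawn with matplotlib 3.10.9 in Python 3.11.15.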

Additional observations from a re-analysis of the deposited data

How the results depend on the processing

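Over the 8 settings other than left-out libraries, the number of the 9 genes called was 7 to 9 between the lines and 6 to 7 between the ages, and 212 of 216 values kept their direction and side of the threshold. The numbers of all genes called were 5261 to 6604 (lines), 5717 to 6393 (ages) and 7376 to 8322 (4-week BPH/2J against BPN/3J). The 2 that passed newly were Cxcr4 between the ages, with upper-quartile scaling (0.37, adjusted p = 0.0475) and with DESeq2 (0.34, adjusted p = 0.039). With each library left out, 6 to 9 genes passed between the lines and 4 to 7 between the ages, among 4362 to 7117 and 4606 to 7383 of all genes, and for 4-week BPH/2J against BPN/3J 4 to 5 passed among 6968 to 8682. The log2 differences then ranged, between the lines, from -1.71 to -0.64 for Cxcl10, 0.17 to 0.33 for Cxcl16, -1.26 to -0.73 for Ccl2 and 0.25 to 0.37 for Cx3cl1, and between the ages from 0.22 to 0.51 for Cxcr4, 0.34 to 0.49 for Ackr3 and 0.26 to 0.34 for Cxcl16. In the last comparison they ranged from 0.46 to 1.53 for Cxcl10, from -0.13 to 0.035 for Cxcl16, from -0.055 to 0.49 for Ccl2 and from 0.0073 to 0.19 for Cx3cl1, which passed without 4-week replicate 1 (adjusted p = 0.0425). There uncalled values changed sign for Cxcl16 without BPN/3J replicate 1 (0.035) and for Ccl2 without BPN/3J replicate 3 (-0.028) or 4-week replicate 3 (-0.055). The log2 ratio of Ackr3 to Cxcr4 ranged from -1.88 to -1.69 between the lines and from -0.071 to 0.21 between the ages, with reversals at -0.071 and -0.022. That of Cxcl12 to Cxcr4 ranged from -0.41 to -0.17 and from 0.38 to 0.63. The cause of these changes was not tested, beyond the fewer libraries of each left-out fit. Of the list counts, 706 of 720 lay within 1.5 times of the main count under the other settings and 714 of 810 with a library left out.

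Equal replicate numbers did not pair the libraries: residuals of the 9 pairs with equal numbers correlated at -0.161 to 0.0774, and those of the 18 pairs with unequal numbers at -0.117 to 0.136. With the replicate number as a block, 7, 6 and 4 of the 9 genes passed in the 3 comparisons, among 5261, 5758 and 7723 genes, and between the lines Cxcl16 stood at 0.26 (adjusted p = 0.0577) and Cx3cl1 at 0.30 (adjusted p = 0.0669). Depth limits Cxcl10 most, at 24 to 27 counts in 22-week BPH/2J. No scaling moved the median of all genes by 0.1 or more on the log2 scale.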

Other observations

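Several of the 9 genes lie in clusters of related genes in the RefSeq gene order, and their neighbours did not all follow them. Cxcl9 and Cxcl10 sit on chromosome 5 with Art3 between them, yet Cxcl9 was lower in both ages of BPH/2J than in BPN/3J, while Cxcl10 at 4 weeks, 3.68 ± 0.641 CPM, did not differ past the threshold from BPN/3J, 2.17 ± 1.55 CPM. Cxcl1 lies between Cxcl15 and Cxcl2 on the same chromosome. Ccl2 is followed on chromosome 11 by Ccl7, a further monocyte attractant, which was at 7.60, 4.27 and 3.86 CPM in BPN/3J. In BPH/2J it was at 3.10, 6.17 and 7.58 CPM at 4 weeks and at 2.14, 2.67 and 1.55 CPM at 22 weeks. The order of libraries for Ccl7 was that of Ccl2 within BPN/3J and within 4-week BPH/2J, and the gene was chosen after its values were seen. Ccl7 was lower in 22-week BPH/2J than in BPN/3J (log2 difference -1.31 ± 0.37, edgeR adjusted p = 0.0175) and than in 4-week BPH/2J (-1.41 ± 0.36, edgeR adjusted p = 0.0111).

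Markers of other cell types were called in several directions. Of all genes tested, 19.8% were higher and 18.2% lower between the lines, and 19.9% were higher and 21.1% lower between the ages. Lymphocyte markers, which include T cells that carry receptors for Cxcl9, Cxcl10 and Cxcl16, were higher for 2 and lower for 1 of 10 in BPH/2J at 22 weeks and higher for 6 of 10 at 22 than at 4 weeks. The number higher between the lines ran from 1 (without BPN/3J or 22-week BPH/2J replicate 3) to 5 (without 4-week replicate 1 or 22-week BPH/2J replicate 2), and the marker that was lower, Cd4, was lost without BPN/3J replicate 2 or 3 or 22-week BPH/2J replicate 1 or 2. Their summed level was 54.4 to 61.8 CPM in BPN/3J, 39.6 to 61.2 in 4-week BPH/2J and 52.9 to 115 in 22-week BPH/2J. Cd8a was at 0.425 ± 0.114, 1.02 ± 0.465 and 2.63 ± 0.432 CPM in BPN/3J, 4-week and 22-week BPH/2J. Neutrophil markers were higher for 4 of 5 at 22 than at 4 weeks (2 without 22-week BPH/2J replicate 1) and summed to 9.82 to 13.9, 3.82 to 4.62 and 8.53 to 11.9 CPM. Fibroblast markers were lower for 2 of 7 in BPH/2J at 22 weeks, a number that ran from 0 (without BPN/3J replicate 2 or 3, or 22-week BPH/2J replicate 2) to 4 (without 4-week replicate 1), and Dcn, the most abundant, was at 347 ± 20.6, 133 ± 40.0 and 219 ± 51.5 CPM. Pericyte and smooth muscle markers were higher for 1 of 8, Rgs5, at 470 ± 50.4, 853 ± 89.7 and 776 ± 69.2 CPM. Cardiomyocyte markers were lower for 4 of 7, with summed levels of 617 to 763, 300 to 482 and 400 to 497 CPM. Endothelial markers were higher for 6 of 8 in BPH/2J at 22 weeks and for 3 of 8 at 22 than at 4 weeks. The part of these cell types in the results for the 9 genes was not tested.

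Among the 53 chemokine and receptor genes listed, 12 did not pass the filter on low counts, and the highest of them reached 0.540 CPM in any library. Cxcl14, a ligand made by stromal cells, was lowest in 4-week BPH/2J, at 0.449 ± 0.123 CPM, against 2.16 ± 0.895 at 22 weeks and 5.32 ± 1.43 CPM in BPN/3J, an order that none of the 9 genes but Ackr3 had.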
